A study of Homo sapiens with 3 samples.

Results

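To find where the transcription factor ZBTB11 bound near the PRRG genes, all ZBTB11 ChIP-seq peaks within 3 kb of any annotated transcript start of PRRG1, PRRG2, PRRG3 and PRRG4, and all peaks in the bodies of these genes, were collected. The 4 genes are the whole family, out of 62663 annotated genes, of which 20033 are protein-coding. The cells were NCI-H1299, an established human lung cancer line, labelled wild type (WT) and untreated and grown in DMEM with FBS. Chromatin crosslinked with formaldehyde was immunoprecipitated with a ZBTB11 antibody (Bethyl) or with control IgG, 1 library each. The sample label gives CST as the supplier of the IgG, whereas the study's methods name Invitrogen. An input library was also labelled, and no peak list of it was analysed here. With 1 library per antibody there were no replicates, so no test between groups was made and every interval below covers counting error alone.

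PRRG proteins are single-pass membrane proteins whose extracellular part carries a Gla domain, the module that vitamin K-dependent clotting factors use to bind calcium and phospholipid membranes. Glutamate residues of this domain are carboxylated by GGCX, which uses the vitamin K that VKORC1 and its relatives recycle. The cytoplasmic tails are rich in proline and hold PPxY motifs, which WW domains of proteins such as YAP1 and the NEDD4 family of ubiquitin ligases recognise. ZBTB11 belongs to the BTB zinc finger transcription factors, and the ChIP experiment asked which genes it occupies.

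Only PRRG2 had a strong ZBTB11 peak. At the summit of its start peak 444 DNA fragments overlapped (exact Poisson 95% interval 404 to 487), 20.79-fold over the local background. Over the genome-wide background, an alternative chosen after seeing the data, the same peak was 189-fold enriched. Whether the input library served as the control of the peak calls is not given in the sources used here, so what the local background was computed from is not known. The strongest start peak had 4 fragments at PRRG1 (1.09 to 10.2), 3 at PRRG3 (0.619 to 8.77) and 5 at PRRG4 (1.62 to 11.7). The interval of PRRG2 thus did not overlap those of the other 3 genes, whose own intervals overlapped each other. These fragment numbers were recovered from the deposited fold enrichment and −log10 p of each peak, and the summit is the highest point that the peak caller chose. Peaks were listed only at a p value below 0.05, and the lowest number in the list is 3 fragments. The intervals take no account of this limit or of the choice of the highest point.

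The sequence at the PRRG2 peak is shown first because it holds the letters to which the peak values are set below. The start of PRRG2 faces that of NOSIP, which encodes an interactor of nitric oxide synthase and is read from the opposite strand. The bases between these facing starts of the 2 genes are given first (hg38, chr19:49580559-49580645). The first bases of the PRRG2 intron follow, up to the end of the region amplified by ChIP-qPCR in the study (chr19:49580706-49580787). Both are given on the strand of PRRG2. Capitals mark CCGGAAG and the shorter core CCGGAA, the latter also as its reverse complement TTCCGG:
PRRG2 and NOSIP, between their starts: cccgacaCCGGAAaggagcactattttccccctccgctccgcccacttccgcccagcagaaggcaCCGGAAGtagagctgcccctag
PRRG2 intron: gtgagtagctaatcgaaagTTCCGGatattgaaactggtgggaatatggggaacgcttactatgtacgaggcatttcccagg

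The 30 bases around the summit of the strongest start peak are given for each gene, on the same strand as the gene and with CCGGAA in capitals, to compare the strong peak with the weak ones:
PRRG1 (chrX:37349399-37349428): agtgtggcggccgcgctgggttcctagctg
PRRG2 (chr19:49580674-49580703): aagtcctctcttctctttctctctCCGGAA
PRRG3 (chrX:151701455-151701484): aagccagcctttcagcaccccttaccctcc
PRRG4 (chr11:32830271-32830300): cccgcggcgacaggtgcccgatcagccctc
PRRG2 alone among the 4 held CCGGAA here. These letters were picked after the PRRG2 peak had been seen, and no share over all start peaks is given for this 30-base window. Their presence at PRRG2 is thus a description alone. PRRG1 has a second start peak of the same size, whose summit lies 562 bp downstream of the nearest start, in an intron.

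In all, 18 ZBTB11 peaks were found at the 4 genes, 6 near a start and 12 in gene bodies. Of the 18 summits, 10 lay in introns, 7 in untranslated regions (UTRs) and 1 in a coding exon. The same shares over all ZBTB11 peaks are not given here, so these counts are a description alone. Both peaks at PRRG2 had a q value of 0.05 or less. The other 16 had at most 6 fragments, and 9 of them were 258 bp wide, the smallest width in the whole list. Peaks this small were common: of the 346891 ZBTB11 peaks on chromosomes 1 to 22, X and Y, 85.3% had at most 6 fragments, against a genome-wide background of 1.35 fragments.

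**Figure D1:**
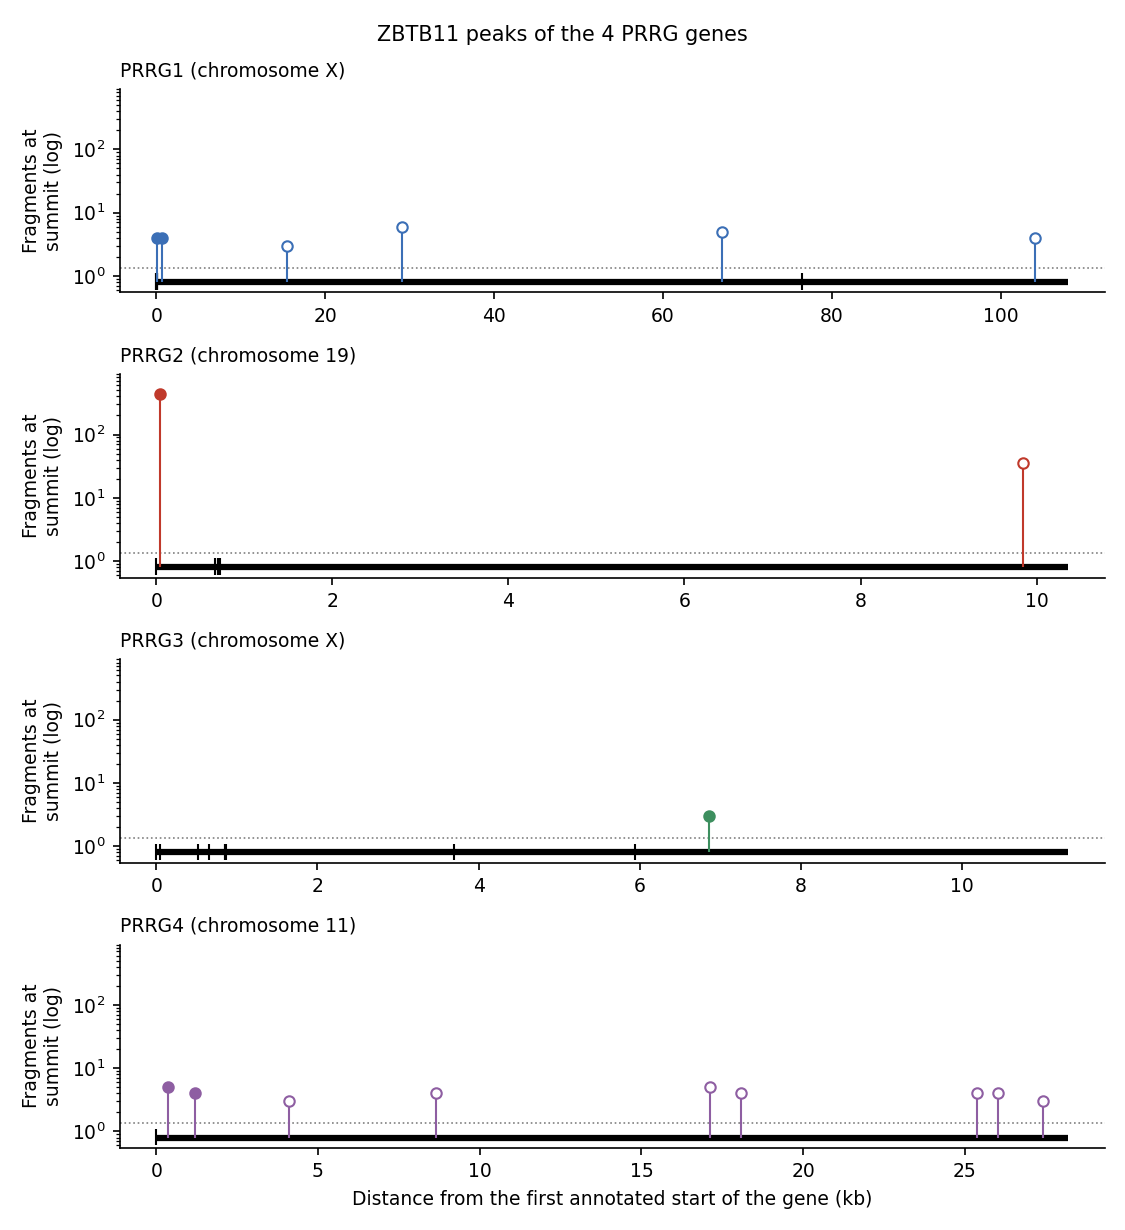
Fragments at the summit (log scale) of each ZBTB11 peak, against the distance of the summit from the first annotated start of the gene in kb, in 1 library. Filled points are peaks within 3 kb of a start, open points are peaks in the gene body, black bars are the genes with their starts as ticks, and the dotted line is the genome-wide background of 1.35 fragments. PRRG2 has peaks of 444 and 35 fragments at its ends, and no peak of the other 3 genes exceeds 6.

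A peak near a start did not by itself set the family apart. All 4 PRRG genes had one, and so did 87.7% of protein-coding genes (Wilson 95% interval 87.3 to 88.2). At a p value of 1e-05 or less, 1 of the 4 genes was called, against 46.9% of protein-coding genes. At a q value of 0.05 or less it was again 1 of 4, against 55.3%. With 4 genes the interval of the first of these shares runs from 4.56% to 69.9%, which includes the background.

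The 4 genes were then placed in the order of all protein-coding genes by the −log10 p of their strongest start peak, counting a gene without a peak as smaller. PRRG2 exceeded 99.1% of the 20033 genes (99.0 to 99.2), with 175 genes above it. PRRG4 exceeded 22.6% (22 to 23.2), PRRG1 13.9% (13.4 to 14.4) and PRRG3 12.3% (11.8 to 12.7). The lower positions depended on the setting by more than these counting intervals: with starts counted within 1 kb PRRG4 was at 31.3%, PRRG1 at 24.0% and PRRG3 at 22.4%, and among all annotated genes they were at 48.7%, 33.5% and 30.3%. The 3 positions are shared with many genes, since 1668 others were tied with PRRG4, 1247 with PRRG1 and 246 with PRRG3. PRRG1, PRRG3 and PRRG4 had fewer fragments than the median of 11 over the protein-coding genes with a start peak.

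The IgG list gave no value at the PRRG genes. Its 26712 peaks were on chromosomes 1, 10, 21 and Y, whereas PRRG1 and PRRG3 are on chromosome X, PRRG2 is on 19 and PRRG4 on 11. Whether the IgG list is complete is not known, so IgG peaks on chromosomes 1, 10, 21 and Y alone do not show that IgG gave no signal elsewhere. Of 3074 protein-coding genes on the chromosomes of the IgG list, 67.3% had an IgG peak near a start, with a median of 7 fragments and a highest value of 18. The start peaks of PRRG1, PRRG3 and PRRG4 were thus below the median of the IgG start peaks, and that of PRRG2 was above every one of them, although the 2 sets of genes are not the same. On those same 3074 genes the ZBTB11 list had a start peak at 85.6%, and 27.1% had more fragments than any IgG start peak. The genome-wide backgrounds of the 2 lists were 1.55 fragments for IgG and 1.35 for ZBTB11.

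**Figure D2:**
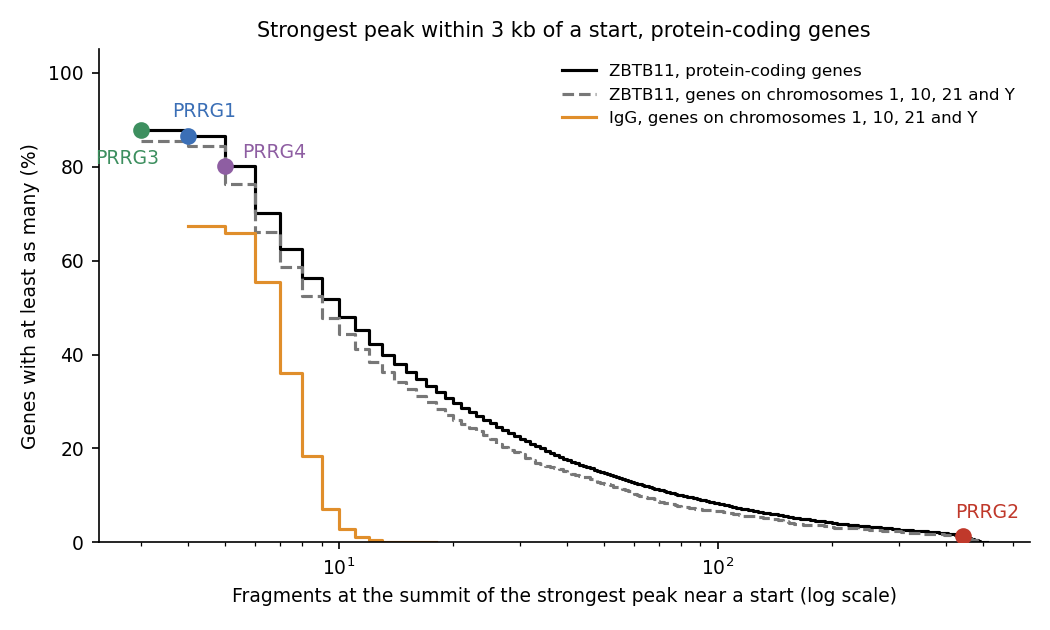
Percent of protein-coding genes whose strongest peak within 3 kb of a start has at least the number of summit fragments on the log-scaled horizontal axis, for ZBTB11 over all 20033 genes (black), for ZBTB11 over the 3074 genes on the chromosomes with IgG peaks (dashed) and for IgG over those 3074 genes (orange). The coloured points place the PRRG genes on the black curve: PRRG2 at 444 fragments lies beyond the IgG maximum of 18, and the others lie at 3 to 5.

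PRRG2 (ENSG00000126460.11, chr19:49580646-49591004, plus strand) had its start peak at chr19:49580285-49581126, 842 bp wide, with the summit at 49580688. Its −log10 p was 412.97, its −log10 q was 407.31 and its local background was 20.4 fragments. The summit lay 42 bp downstream of the first annotated start, that of transcript PRRG2-204, in the 5′ UTR of that transcript. The other 4 transcripts start further downstream. PRRG2-201, whose start is also the RefSeq start of the gene, begins at 49581316, which is 628 bp downstream of the summit and 190 bp beyond the end of the peak. The remaining starts lie 221 to 247 bp beyond it. Thus 1 of the 5 PRRG2 starts was under the peak, and GENCODE gives the transcript of that start a support level of 3 against 2 for PRRG2-201, where 1 is the best supported.

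NOSIP shared the peak and therefore had the same −log10 p. Of its transcripts, 7 start between 49580532 and 49580558 on the minus strand, all under the peak. The nearest NOSIP start was 130 bp from the summit and 88 bp from the start of PRRG2-204. A peak does not say which of the 2 genes is acted on, and expression was not measured in these libraries. In separate experiments the study reported that ZBTB11 knockdown raised PRRG2 expression. It also reported that knockdown raised, and ZBTB11 overexpression lowered, the activity of a luciferase reporter with the ZBTB11-binding element of PRRG2. Starts on both strands under 1 peak were found at 41.2% of the 400 start peaks with at least 300 fragments (36.5 to 46.1) and at 16.2% of all 15435 different strongest start peaks (15.7 to 16.8). The 400 strong peaks had a median width of 884 bp (675 to 1572) and a median distance of 34 bp from the summit to the nearest start, beside which stand the 842 bp and 42 bp of PRRG2.

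The genes next to PRRG2 in the order of −log10 p were few enough to name. Directly above it were COQ4, needed for coenzyme Q synthesis, and TRUB2, a mitochondrial RNA pseudouridine synthase, which share 1 peak on chromosome 9 with 466 fragments and a −log10 p of 413.25. Directly below were MTERF4, a factor of mitochondrial ribosome assembly, with 440 fragments and 412.77, and TMEM41A, a transmembrane protein gene, with 434 fragments and 412.62. COQ4 and TRUB2 differed from PRRG2 in −log10 p by 0.28, MTERF4 by -0.19 and TMEM41A by -0.34, in 1 library, and their fragment numbers fell within the counting interval of PRRG2. The 8 genes whose start regions the study tested by ChIP-qPCR beside PRRG2 had 307 to 487 fragments and 17.86- to 23.24-fold enrichment. PRRG2 lay inside both ranges, with 4 of the 8 above it in fragments. Of the 8, the gene with the fewest fragments had the highest fold, so the fold did not order these peaks by fragments. How far the local background holds the signal of the peak itself was not tested.

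The study's PRRG2 primers were placed on the genome to see which part of the peak they amplify. Each primer had 1 exact match, and they are printed 5′ to 3′ as ordered, in lower case throughout:
PRRG2 forward (chr19:49580679-49580701, plus strand): ctctcttctctttctctctccgg
PRRG2 reverse (chr19:49580766-49580787, minus strand): cctgggaaatgcctcgtacata
The 109 bp between their outer ends begin 9 bp before the summit and end 99 bp after it. The amplicon held 2 copies of CCGGAA on either strand and no copy of the 7-letter consensus described next. It ends 529 bp before the start of PRRG2-201.

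The consensus searched was CCGGAAG or CAGGAAG, with the reverse complements CTTCCGG and CTTCCTG. The study derived this motif de novo from the high ZBTB11 peaks of its own ChIP-seq. A larger share of it at strong peaks than at weak ones was therefore built in, and the shares below are a description alone. The shorter CCGGAA, which is part of CCGGAAG, was added after the sequence of the PRRG2 peak had been seen. In the PRRG2 start peak CCGGAAG lay at 49580624 to 49580630, 58 to 64 bp upstream of the summit and 22 bp upstream of the PRRG2-204 start, and CTTCCTG lay 191 to 197 bp upstream of the summit. CCGGAA occurred 4 times within 150 bp of the summit, beginning 122 and 64 bp upstream of it and 10 and 37 bp downstream, the last of these on the minus strand. As many copies were found at 0.486% of all strongest start peaks (75 of 15435) and at 6.75% of those with at least 300 fragments (27 of 400). PRRG4 had 1 copy in the same window and PRRG1 and PRRG3 had 0.

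Counted within 50 bp of the summit, the consensus was present at 1 of the 4 strongest start peaks, that of PRRG1, where CAGGAAG began 43 bp downstream of the summit of a peak of 4 fragments. The share over all strongest start peaks was 14.7%, that over peaks with at least 300 fragments was 41.5% (36.8 to 46.4) and that over peaks with at most 5 fragments was 4.17%. CCGGAA within 50 bp was present at PRRG2 alone, against 15.4%, 61.5% (56.6 to 66.1) and 1.53% for the same sets. The PRRG2 start peak thus lacked the 7-letter consensus within 50 bp of the summit and held it within 100 bp, where 58.8% of the peaks with at least 300 fragments held it. At PRRG4 the nearest copy of the consensus began 64 bp downstream of the summit. A match of letters describes the window and does not show a bound site.

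**Figure D3:**
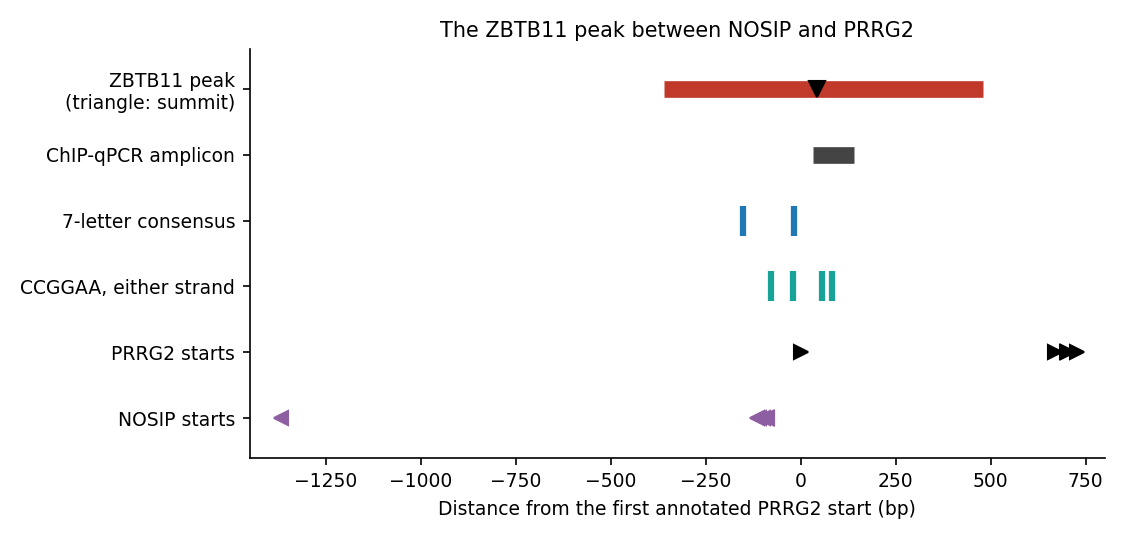
Features of the region around the facing starts of NOSIP and PRRG2, against the distance in bp from the first annotated PRRG2 start. Shown are the ZBTB11 peak with its summit, the ChIP-qPCR amplicon, matches of the 7-letter consensus and of CCGGAA, and the annotated starts. Triangles at the starts point in the direction of transcription. The summit at 42 bp lies inside the amplicon, the consensus copy at -22 bp lies outside it, and the starts of PRRG2 from 670 bp onwards lie beyond the peak.

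The second PRRG2 peak lay at the other end of the gene, at chr19:49590254-49591116. It had 35 fragments (24.4 to 48.7), 6.18-fold enrichment over a local background of 4.82 and a −log10 p of 19. Its summit, at 49590488, was in the UTR of the last exon. This peak covered the start of NOSIP-212, a NOSIP transcript that begins at 49590262, and ended just before PRR12, which starts at 49591182. It held CCGGAAG 37 to 43 bp upstream of the summit, overlapped by TTCCGG on the other strand. Within 3 kb of the PRR12 start the highest peak had 40 fragments, with its summit 698 bp downstream of that start, outside PRRG2. Compared with the start peak, the 3′ peak had an interval of fragments that did not overlap it and lay well below it.

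PRRG1 (ENSG00000130962.18, chrX:37349309-37457292, plus strand) had 2 start peaks of 4 fragments each, with 2.12-fold enrichment and a −log10 p of 1.90. The first, at chrX:37349257-37349514, covered 5 of the 6 distinct starts of the gene, and its summit at 37349413 lay 34 bp downstream of the nearest of them. It also covered the start of ENSG00000250349, a second protein-coding gene model that begins at 37349330. The second, at chrX:37349743-37350000, had its summit at 37349941. The start at 37425752, of a retained-intron transcript, had no peak within 3 kb. In the gene body there were 4 peaks of 3, 6, 5 and 4 fragments, the last with its summit at 37453398 in a coding exon. This amounts to 4.04 peaks per 100 kb (1.1 to 10.4), beside 5.77 over all protein-coding gene bodies of chromosome X and 12 over those of the genome.

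PRRG3 (ENSG00000130032.17, chrX:151694607-151705924, plus strand) had the fewest fragments. Its single peak, at chrX:151701336-151701593, had 3 fragments, 1.70-fold enrichment and a −log10 p of 1.31, the smallest number of fragments in the list. Its summit at 151701469 lay 918 bp downstream of the start of PRRG3-203, which begins inside a coding exon of the gene. The other 8 starts of PRRG3 were 3029 to 6729 bp from the peak and had none within 3 kb. None of the 4 RefSeq starts of PRRG3 was near a peak, whereas the RefSeq starts of PRRG1, PRRG2 and PRRG4 were, as were 84.3% of the 15366 protein-coding genes with a RefSeq start. No peak lay in the 2.37 kb of the PRRG3 body that is over 3 kb from every start. On chromosome X as a whole, which carries PRRG1 and PRRG3, 70.5% of 859 protein-coding genes had a start peak and 30.8% had one called at 1e-05, and the density was 5.80 peaks per 100 kb against 11.8 over all chromosomes.

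PRRG4 (ENSG00000135378.4, chr11:32829927-32858120, plus strand) has a single annotated start, and no peak covered it. The nearer peak, at chr11:32830134-32830744, began 207 bp downstream of the start and had its summit at 32830285, 358 bp downstream in an intron, with 5 fragments, 2.55-fold enrichment and a −log10 p of 2.57. The other, at chr11:32830890-32831147, had 4 fragments and a summit 1194 bp downstream. The gene body held 7 peaks of 3 to 5 fragments, 3 of them with summits in the UTR. That is 27.8 per 100 kb (11.2 to 57.2), against 11.7 over protein-coding gene bodies of chromosome 11, which lies inside that interval near its lower end. The 31 bases around 1 of these summits, at 32857344, occur 102 times in the genome, while those around the other 17 PRRG summits occur once.

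The sequence around the RefSeq starts was examined for the same letters. In the RefSeq promoter windows, from 250 bases before to 50 after each start on GRCh38.p14, neither the consensus nor CCGGAA was present at any of the 7 PRRG starts, while 24.0% and 21.3% of 21613 promoters held them. The window of PRRG2 was 54.7% GC with a CpG observed over expected ratio of 0.49, against medians of 62.3% and 0.74. PRRG1 had 66.7% and 0.81, PRRG4 had 74.7% and 0.86, and the windows of PRRG3 ran from 46.0% to 78.7% GC. The 120 bases before the RefSeq starts of PRRG2 and PRRG4 are shown, both outside the strong peak:
PRRG2 (chr19:49581196-49581315): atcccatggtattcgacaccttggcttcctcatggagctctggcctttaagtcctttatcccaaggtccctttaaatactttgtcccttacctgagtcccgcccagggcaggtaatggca
PRRG4 (chr11:32829807-32829926): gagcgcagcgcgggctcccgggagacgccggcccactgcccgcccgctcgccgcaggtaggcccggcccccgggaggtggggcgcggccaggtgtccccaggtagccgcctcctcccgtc

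The genes that share a domain or a pathway with the PRRG proteins were listed and counted in the same way. The 11 other Gla domain genes include those of clotting factors, of their inhibitors and of the mineral-binding Gla proteins. Among these 11 genes, 7 had a start peak and 1 was called at a p value of 1e-05 or less. This was PROS1, encoding the anticoagulant protein S, with 30 fragments, 8.48-fold enrichment and a −log10 p of 21.87. The share of 9.09% (1.62 to 37.7) lay below the 46.9% of all protein-coding genes, and the median of 5 fragments over the 7 genes was near the 4.50 of the PRRG genes. The other 4 listed genes, F7, F9, F10 and UCMA, had no start peak.

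Of 5 genes of the vitamin K cycle, 4 were called (interval of the share 37.6% to 96.4%), and this interval includes the 46.9% of all protein-coding genes. NQO1 (17 fragments, −log10 p of 11.08), VKORC1 (16 fragments, 9.43), VKORC1L1 (19 fragments, 9.20) and AIFM2 (13 fragments, 7.37) all encode reductases of quinones or of vitamin K. GGCX, the carboxylase that modifies the Gla domain itself, was not called, with 7 fragments at a summit 2831 bp from its nearest start. GGCX, YAP1 and the 4 Gla domain genes without a peak were named after their values were seen.

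Genes with WW domains that bind PPxY motifs, partners of the PRRG tails, were called at 8 of 14, or 57.1% (32.6 to 78.6), which is near the background of 46.9%. The largest values were at WWP2, a ubiquitin ligase, with 58 fragments and a −log10 p of 51.91, at the scaffold gene MAGI1 with 33 fragments and 24.77, and at the ligase gene WWP1 with 35 fragments and 17.44. YAP1, whose WW domain binds the PRRG2 tail, had 23 fragments and 13.08. Of 18 Hippo pathway genes, both regulators and partners of YAP1 and genes downstream of it, 14 were called, or 77.8% (54.8 to 91.0), against the 46.9% of all protein-coding genes. The list was chosen with earlier results of these data known, and its difference from the other genes was not tested. LATS1 had 282 fragments, STK3, encoding an upstream kinase, had 236, and TEAD4, encoding a DNA-binding partner of YAP1, had 232. Of the Robo receptor genes, encoding axon guidance receptors that PRRG4 lowers when expressed in cells, 2 of 3 were called, ROBO3 with 32 fragments and a −log10 p of 24.44 and ROBO1 with 20 fragments and 14.16. With 3 genes the interval of this share, 20.8% to 93.9%, includes the 46.9% of all protein-coding genes. No gene of these 5 lists reached the 444 fragments of PRRG2.

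**Figure D4:**
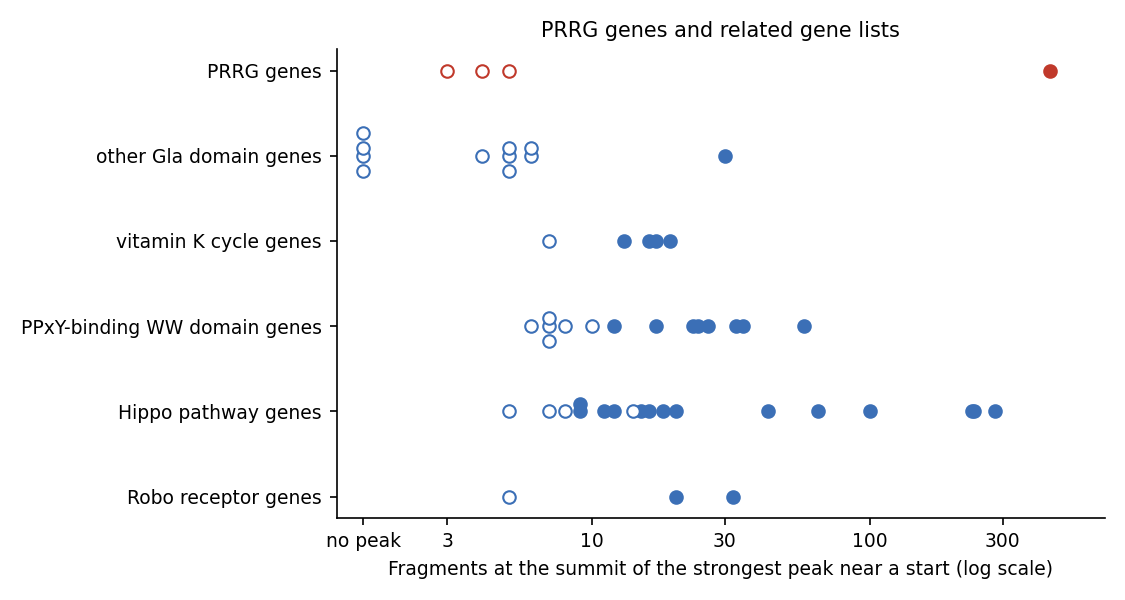
Fragments at the summit of the strongest ZBTB11 peak within 3 kb of a start (log scale, genes without a peak set apart at the left) for the PRRG genes and 5 lists of related genes, 1 point per gene and 1 library. Filled points have a p value of 1e-05 or less. PRRG2 lies to the right of every listed gene, the highest of which is LATS1 with 282 fragments, and the other PRRG genes lie at 3 to 5.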

How the data were processed

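ChIP-seq libraries of untreated NCI-H1299 cells were labelled Input, ZBTB11 and IgG, 1 each. Per the study's methods and the labels, the authors sequenced paired ends, used BWA to align them to hg38, and ran MACS for each antibody at a p value below 0.05. The deposited values are a fold (a ratio to the local background, with a pseudocount of 1), −log10 p, −log10 q and a summit per peak. The deposited display score and the summit offset were used for no value of their own, apart from the summit position. Read totals were not analysed here, so depth is unknown. Reads at one place may include PCR copies.

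Summit fragments and background were recovered by solving the fold and a Poisson tail for each peak, and 100% of solutions returned the deposited −log10 p within 0.001. The recovery was tested on simulated data. These were built with the same formulas, so the test covered the solving and not whether the deposited values follow the formulas. Starts and genes came from GENCODE release 44 on chromosomes 1 to 22, X and Y. A start peak touches 3 kb on either side of a start, and a body peak has its summit in the gene over 3 kb from every start. Intervals are Wilson or exact Poisson at 95%. Python 3.11.15, numpy 2.4.6, scipy 1.17.1, pysam 0.24.0 and samtools 1.23.1 were used. The members and gene lists were chosen with earlier results of these data known. A gene first listed with the vitamin K cycle is not reported here and was left out of that list. Named genes were the 4 members, genes starting within 3 kb of a PRRG2 peak or of another member's start, the neighbours of PRRG2 in the order of −log10 p, and in each list the called genes or, if over 5, the 3 with the largest −log10 p. Other thresholds, windows, annotations and backgrounds were tried as alternatives.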

Additional observations from a re-analysis of the deposited data

How the results depend on the processing

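Of 37 alternatives to 13 results, 20 stayed close to the reported value and 17 did not. The percentiles among the 17 all lay outside their counting intervals, however small the shift, as at PRRG2 with 98.9 by fold against 99.1. Counted among the 20 were the RefSeq starts, with which the PRRG genes with a start peak went from 4 to 3 in either window. At a p value of 1e-05 or less, or a q value of 0.05 or less, the PRRG genes with a start peak went from 4 to 1 and the body peaks from 12 to 1, all at PRRG2. Percentiles of PRRG1 were 24.0 with a 1 kb window and 33.5 among all annotated genes, those of PRRG3 22.4 and 30.3, and those of PRRG4 31.3 and 48.7, with 23.4 by fold. PRRG2 was at 98.9 by fold and 99.6 among all annotated genes. The consensus was found at 0 strongest start peaks within 25 bp of the summit, at 3 within 100 bp and at 3 over the whole peak. Over the genome-wide background, chosen after seeing the data, the PRRG2 fold was 189, and how far the local background holds the signal of the peak itself was not tested. RefSeq starts with a 1 kb window and CCGGAA in place of the consensus were also chosen after seeing the data. The list counts stayed within 1.5 times. Peaks of 3 to 6 fragments are too few counts to order PRRG1, PRRG3 and PRRG4. No paired analysis was possible because each antibody had 1 library and no test was made.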
